A study of Rattus norvegicus with 6 samples.

Results

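Here 10 of the transcription factors that define heart muscle were followed in cultured newborn rat heart cells that were stretched, given phenylephrine or left untreated. The genes were Gata4, Gata6, Mef2a, Mef2c, Nkx2-5, Tbx5, Tbx20, Hand2, Irx4 and Srf, and the members were all probe sets whose platform gene symbol was one of these names. Of the 10 genes, 9 had at least 1 probe set, and together they had 19 of the 31042 probe sets tested. Tbx20, a T-box factor, was matched by no probe set and was not analysed here. Because 1 gene can have several probe sets, each gene was represented in counts of genes by its brightest probe set, the one with the highest mean over all arrays. Probe sets of 1 gene share their RNA and are not separate samples.

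The study measured RNA from isolated heart muscle cells of Wistar rats aged 1 to 2 days with 6 single-colour Affymetrix expression arrays, 2 for each of 3 groups. The stretch group was extended biaxially to 112% for 24 h on collagen-coated silicone, after 36 h in culture and 24 h without serum. The phenylephrine group received 50 µmol/l of phenylephrine, an agonist of the α1-adrenergic receptor that makes cultured heart muscle cells grow, and the control group received no treatment. How long phenylephrine was given, and on which surface and how long without serum the phenylephrine and control cells were kept, is not stated in the labels, so a stimulus and these conditions cannot be told apart. All groups came from cells purified on a Percoll gradient to remove fibroblasts, and RNA was combined across several preparations before hybridisation. Nothing labels the 2 arrays of a group as separate cultures, so p-values here reflect only how far these samples differ, and that difference may be technical. An exact two-sided permutation test of 2 arrays against 2 cannot give a p below 0.333, so tests came from one limma model over all probe sets, with Benjamini-Hochberg adjusted p under 0.05 as the threshold.

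These factors work as a network. GATA zinc finger proteins, MADS-box proteins of the MEF2 and SRF families, the homeodomain protein NKX2-5, T-box proteins and the basic helix-loop-helix protein HAND2 bind near one another in heart muscle enhancers and switch on genes for contractile proteins, natriuretic peptides and gap junctions. IRX4 is a homeodomain protein of the ventricles, TBX5 is needed for the atria, the left ventricle and the conduction system, and GATA4, MEF2 and SRF are known to be changed in activity by hypertrophic signals, often by phosphorylation or partner proteins, which RNA levels do not show.

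Promoter sequences were read from RefSeq for rat build GRCr8, and 7 of the 9 measured genes were matched. Each sequence below is the 250 bases before the annotated start, 5′ to 3′ on the gene's strand. Srf is shown because its own promoter holds the element that SRF binds, and Irx4, Tbx5 and Hand2 because they were the 3 genes whose deposited signal lay below both control arrays in all 4 treated arrays. Capitals mark a match to a motif on either strand, which is the CArG box bound by SRF in the Srf sequence and the GATA motif (AGATAA or TGATAA, here on the reverse strand) in the Tbx5 and Hand2 sequences.
Srf, chr9:21923826-21924075, plus strand: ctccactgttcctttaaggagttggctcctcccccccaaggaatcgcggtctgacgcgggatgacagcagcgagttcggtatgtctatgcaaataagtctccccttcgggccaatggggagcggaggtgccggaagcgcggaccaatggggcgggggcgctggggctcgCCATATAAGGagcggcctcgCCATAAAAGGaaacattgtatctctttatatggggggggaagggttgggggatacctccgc
Irx4, chr1:31868090-31868339, minus strand: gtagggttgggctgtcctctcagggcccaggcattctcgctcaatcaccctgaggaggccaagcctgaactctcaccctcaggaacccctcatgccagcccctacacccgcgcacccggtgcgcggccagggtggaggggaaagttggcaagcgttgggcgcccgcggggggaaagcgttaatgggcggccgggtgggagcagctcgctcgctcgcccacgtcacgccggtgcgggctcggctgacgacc
Tbx5, chr12:42395360-42395609, minus strand: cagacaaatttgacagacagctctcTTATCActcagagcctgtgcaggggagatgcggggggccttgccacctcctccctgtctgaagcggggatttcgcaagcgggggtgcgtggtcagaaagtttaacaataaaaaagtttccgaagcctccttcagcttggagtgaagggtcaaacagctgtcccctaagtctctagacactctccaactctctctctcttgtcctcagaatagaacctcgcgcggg
Hand2, chr16:37931489-37931738, minus strand: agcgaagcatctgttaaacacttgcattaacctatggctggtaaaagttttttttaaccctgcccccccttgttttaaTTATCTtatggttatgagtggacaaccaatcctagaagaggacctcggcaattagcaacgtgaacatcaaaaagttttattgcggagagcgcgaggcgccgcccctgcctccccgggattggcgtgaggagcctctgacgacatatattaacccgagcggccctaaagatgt
The Srf promoter held 2 CArG boxes, beginning 81 and 61 bases before the start, whereas 1.497% of 33469 rat promoters of the same length held any. The Tbx5 and Hand2 promoters each held 1 GATA motif, beginning 225 and 172 bases before the start, and 16.9% of all promoters held one. The Irx4 promoter held no GATA motif, CArG box, MEF2 box or T-box motif (AGGTGT), nor did those of Gata6 and Nkx2-5. The Mef2a promoter held 1 MEF2 box, 40 bases before the start, as did 2.96% of all promoters, while 11.6% held a T-box motif. A match describes the letters only, and no binding was measured.

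The deposited log2 values of the 6 arrays had medians of 8.296 to 8.334, and array pairs correlated at 0.984 to 0.995. The second phenylephrine array had the narrowest interquartile range, 1.70, against 1.80 to 1.92 in the other 5. In every group the second array had the narrower range. The first and second arrays had 1.92 and 1.80 for stretch, 1.89 and 1.70 for phenylephrine, and 1.91 and 1.82 for control. Of the 9 markers listed for heart muscle, 8 had a probe set, with control means of 13.2 to 14.6, close to the top of the array scale at 15.2, and 0 of 8 passed the threshold in any comparison, while under quantile normalization 1 of 8 fell under each stimulus.

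Phenylephrine lowered 1 of the 9 genes past the threshold, Irx4, and 0 of 9 passed it under stretch. Counted over probe sets, phenylephrine against control gave 1 of 19 called, where 3.6% of all 31042 probe sets were called in either direction and 1.87% as lower. Stretch against control gave 0 of 19, where 0.345% of all were called, and stretch against phenylephrine gave 0 of 19, where 1.33% were called. At an unadjusted limma p under 0.05 there were 3 of 19 in phenylephrine against control (16.6% of all probe sets), 2 of 19 in stretch against control (5.54%) and 2 of 19 in stretch against phenylephrine (12.5%). The core factors were thus called at a share near that of the whole array, and 1 probe set made up the whole count.

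With the replicate number of the arrays as a block in the fit, 2 of 19 probe sets were called in phenylephrine against control (17.3% of all), 1 of 19 in stretch against control (3.31%) and 1 of 19 in stretch against phenylephrine (12%). These were Irx4 and Tbx5 under phenylephrine, Irx4 under stretch, and a second probe set of Mef2c between the stimuli.

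**Figure D1:**
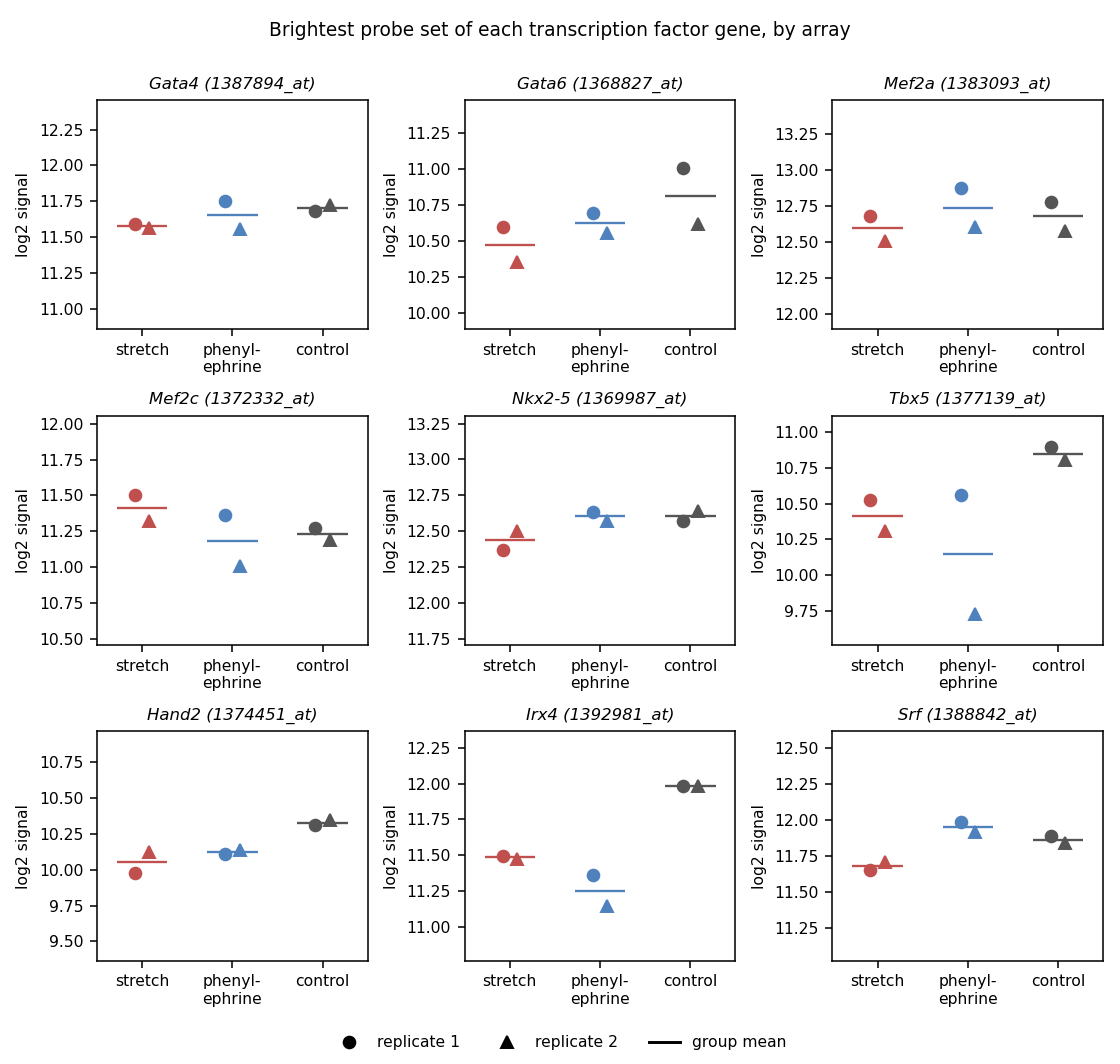
Deposited log2 signal of the brightest probe set of each of the 9 genes (vertical axes, all spanning the same number of log2 units) by group, with circles and triangles for replicates 1 and 2 and bars for group means. Irx4 and Srf are the genes whose 3 groups do not overlap, and the Tbx5 phenylephrine arrays lie furthest apart.

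Among the homeodomain factors, Irx4 showed the only called change. IRX4 is known from chick and mouse as a repressor of atrial genes in the ventricle. Its bright probe set 1392981_at read 11.50 and 11.48 in stretched cells, 11.36 and 11.14 in phenylephrine cells, and 11.99 and 11.98 in control cells. The 3 groups did not overlap, with phenylephrine lowest and control highest. In the model, phenylephrine minus control was -0.73 ± 0.12 on the log2 scale (SE, n = 2 arrays each), 1.66-fold lower, with a 95% interval of -1.01 to -0.45 and a limma adjusted p of 0.0191. Stretch minus control was -0.49 ± 0.12, 1.41-fold lower, with an interval of -0.77 to -0.22 and an adjusted p of 0.285. The blocked fit gave an adjusted p of 0.0101 for that difference. Stretch minus phenylephrine was 0.23 ± 0.12 (adjusted p = 0.495), so the sizes of the changes under the stimuli were not shown to differ.

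The Irx4 call depended on the arrays used. It held without the first phenylephrine array (-0.84, adjusted p = 0.0182) and without the second (-0.62, adjusted p = 0.0450). It was lost without the first control array (adjusted p = 0.140), the second control array (0.162), the first stretch array (0.0528) or the second stretch array (0.0521). The direction held in all 6 omissions. A second Irx4 probe set, 1390081_at, lay below the array median and read 7.45 and 7.48 in stretched cells, 7.58 and 7.55 in phenylephrine cells, and 7.54 and 7.47 in control cells. It did not show the lower level, with phenylephrine minus control at 0.06 ± 0.05 and stretch minus control at -0.04. Both of its phenylephrine arrays lay above both controls. No detection calls were used, and why the Irx4 probe sets differed was not tested. The mean of both Irx4 probe sets gave -0.33 for phenylephrine minus control, with an adjusted p of 0.0567.

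Nkx2-5, which works with GATA4 at the natriuretic peptide promoters, read 12.37 and 12.50 in stretched cells, 12.64 and 12.57 in phenylephrine cells, and 12.57 and 12.64 in control cells. Phenylephrine and control arrays covered the same values, and both stretch arrays lay below them. For stretch minus control the difference was -0.17 ± 0.11, with an interval of -0.42 to 0.08. Phenylephrine minus control had an interval of -0.25 to 0.25 (adjusted p = 0.998), and its sign turned when arrays were centred on their medians.

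Tbx5, the only T-box member with a probe set, gave its lowest reading in 1 phenylephrine array. Probe set 1377139_at read 10.53 and 10.31 in stretched cells, 10.56 and 9.73 in phenylephrine cells, and 10.90 and 10.80 in control cells. All 4 treated arrays lay below both controls, and the second phenylephrine array stood apart from the other 5. The gap of 0.83 between the phenylephrine arrays was the largest within any group for any of the 19 probe sets. Phenylephrine minus control was -0.70 ± 0.24, 1.63-fold lower, with an interval of -1.26 to -0.14 and an adjusted p of 0.192. With the replicate block the adjusted p was 0.0029. Without the second phenylephrine array the difference was -0.29 (adjusted p = 0.352), and without the first it was -1.12 (adjusted p = 0.0153). The stretch minus control difference was -0.43 ± 0.24, with an interval of -0.99 to 0.13.

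Hand2, a basic helix-loop-helix factor of the right ventricle in the mouse embryo, read 9.98 and 10.12 in stretched cells, 10.11 and 10.14 in phenylephrine cells, and 10.31 and 10.35 in control cells with its brighter probe set. Treated arrays again lay below both controls as deposited, the phenylephrine arrays no longer did under quantile normalization, and the treatments overlapped each other. For Hand2, stretch minus control was -0.28 ± 0.11, with an interval of -0.52 to -0.03 and an adjusted p of 0.751. Phenylephrine minus control was -0.20 ± 0.11 (adjusted p = 0.398), and the blocked adjusted p-values were 0.0735 for stretch and 0.0862 for phenylephrine. The dimmer probe set 1369817_at read 8.96 and 8.71 in stretched cells, 8.96 and 8.94 in phenylephrine cells, and 9.07 and 8.90 in control cells, which overlapped.

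As deposited, Irx4, Tbx5 and Hand2 were the 3 of 9 genes with all 4 treated arrays below both control arrays, a set that quantile normalization reduced to the 2 genes Irx4 and Tbx5, and 0 of 9 genes had all 4 above. Over all probe sets, also as deposited, 9.2% lay below in this way and 9.42% above, and 13.5% of those at or above the median brightness lay below. The same 3 genes were the ones with both phenylephrine arrays below both controls, against 22.1% of all probe sets and 29.9% of the brighter ones. Counted over probe sets this was 4 of 19, near the share of all probe sets. Stretch arrays lay below both controls for 7 of 9 genes and 8 of 19 probe sets, against 16.5% of all probe sets and 20.7% of the brighter ones. Those 7 were Irx4, Nkx2-5, Tbx5, Hand2, Gata4, Gata6 and Srf. The genes were measured on the same arrays and are not independent, so these counts are descriptions. The median difference of the 9 genes was -0.18 for stretch minus control and -0.05 for phenylephrine minus control, beside 0.01 for all probe sets in both.

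Fibroblast and endothelial markers were also lower in the treated arrays. All 11 of 11 fibroblast markers lay below both controls in all 4 treated arrays, a pattern seen in 9.2% of all probe sets. The log2 of their summed signal was 15.15 and 15.21 in stretched cells, 14.99 and 14.93 in phenylephrine cells, and 15.45 and 15.42 in control cells. Phenylephrine lowered 4 of the 11 past the threshold, among them Dpt, a matrix protein gene (-0.96 ± 0.10, adjusted p = 0.00431), and 0 of 11 were called under stretch. With the replicate block 9 of 11 fell under phenylephrine and 3 of 11 under stretch, and without the second phenylephrine array 1 of 11 fell under phenylephrine. Over all probe sets the block called 17.3% under phenylephrine and 3.31% under stretch, in either direction. Under quantile normalization 8 of 11 fell under phenylephrine and 3 of 11 under stretch. Of 9 endothelial markers 6 lay below both controls in all 4 treated arrays, 2 fell past the threshold under phenylephrine and 0 were called under stretch. Their summed signal was 12.05 and 12.05 in stretched cells, 11.90 and 11.83 in phenylephrine cells, and 12.17 and 12.19 in control cells. Control means ran from 8.76 to 13.2 for the fibroblast markers and from 7.71 to 10.2 for the endothelial markers, the lowest being below the array medians. In the other lists, 2 of 7 smooth muscle and pericyte markers lay below both controls in all 4 treated arrays and 1 above, with 1 of 7 leukocyte, 1 of 4 mesothelial and epicardial and 0 of 2 Schwann cell markers below. The mean of the smooth muscle and pericyte markers lay 0.02 and 0.04 above the control mean in stretched cells and 0.07 and 0.04 above it in phenylephrine cells. Yet 5 of these 7 had a phenylephrine minus control below 0 and 2 above, with a median of -0.13 and a maximum of 1.30. Of the 7 leukocyte markers, 4 lay below both controls and 1 above in the phenylephrine arrays, and 1 was called lower. Heart muscle markers summed to 16.99 and 17.22 in stretched cells, 17.16 and 17.29 in phenylephrine cells, and 17.17 and 17.06 in control cells, with the groups overlapping in this sum. Taken singly, 4 of the 8 lay above both controls in the phenylephrine arrays and 1 below. Of all probe sets 21.5% lay above and 22.1% below there. In the stretch arrays 0 of 8 lay above both controls and 0 below. The part of these cell types in the levels of Irx4, Tbx5 and Hand2 was not tested. In RNA from many cells at once, fewer cells of a type and less RNA per cell cannot be told apart.

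**Figure D2:**
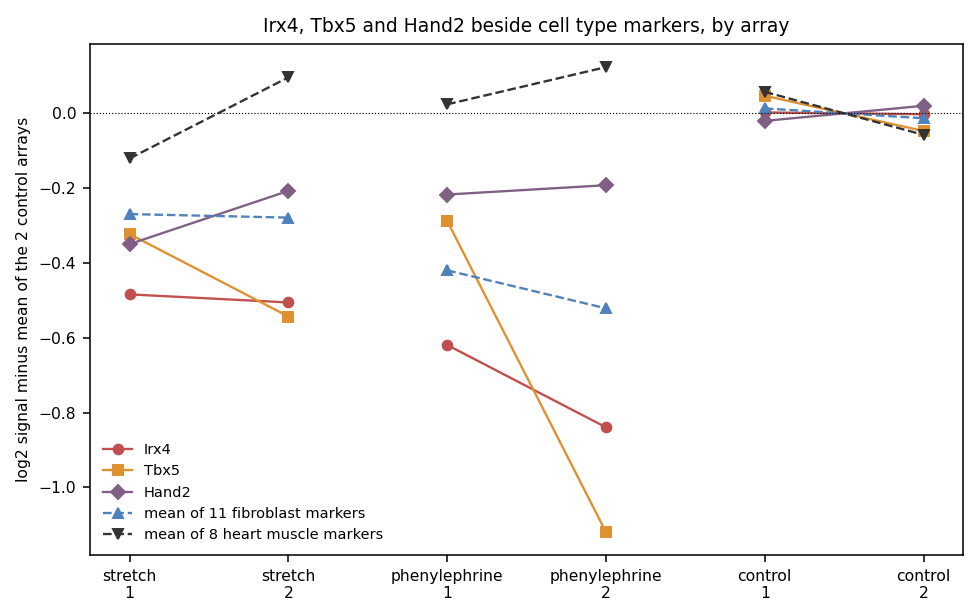
Log2 signal of Irx4, Tbx5 and Hand2 (solid lines), and the mean over 11 fibroblast and 8 heart muscle markers (dashed lines), minus the mean of the 2 control arrays, for each array. Lines join the 2 arrays of a group, and Irx4, Tbx5, Hand2 and the fibroblast mean lie below 0 in all 4 treated arrays.

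Other ventricular markers were not called alongside Irx4. Of 4 listed, Irx4 was the only one called. The myosin light chain genes Myl2 and Myl3 had phenylephrine minus control of 0.23 ± 0.13 and 0.19 ± 0.10, and stretch minus control of -0.01 ± 0.13 and 0.03 ± 0.10. Both phenylephrine arrays of Myl2 and of Myl3 lay above both controls, opposite to Irx4, as for 21.5% of all probe sets. Hey2, a Notch target that acts as a repressor in the ventricle, had stretch minus control of -0.23 ± 0.17 and phenylephrine minus control of -0.25 ± 0.17, and with the replicate block it too was called under phenylephrine (adjusted p = 0.0408). The atrial light chain gene Myl4 rose under phenylephrine by 0.99 ± 0.15 (adjusted p = 0.0134), and its stretch minus control was 0.38 ± 0.15 (adjusted p = 0.798). Of the 5 atrial markers measured, phenylephrine raised 2, Myl4 and Nppa, and lowered 0, while 3 of 5 had a difference below 0 and the list's median was -0.02. Stretch called 0 of 5 atrial markers, and under quantile normalization 1 rose and 1 fell.

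The profiles most like that of Irx4 belonged to Efnb3, Cpxm1 and Cxcl12. Likeness was the root mean square difference over the 6 arrays after subtracting each probe set's control mean, among 20821 named probe sets. Efnb3, an ephrin ligand gene, differed from Irx4 by 0.032, Cpxm1, a carboxypeptidase-like gene, by 0.033, and Cxcl12, a chemokine gene, by 0.045. Phenylephrine minus control was -0.69 for Efnb3, -0.70 for Cpxm1 and -0.68 for Cxcl12. These genes were picked for matching Irx4 on the same arrays, so that they lay lower with it follows from the choice, and their differences are descriptions.

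The GATA factors gave no call. Gata4, the zinc finger factor central to the hypertrophic response of heart muscle, read 11.59 and 11.57 in stretched cells, 11.75 and 11.56 in phenylephrine cells, and 11.68 and 11.73 in control cells. Stretch arrays lay just below the controls, and phenylephrine arrays fell on both sides of them. Stretch minus control was -0.12 ± 0.12, with an interval of -0.40 to 0.15, and phenylephrine minus control was -0.05 ± 0.12, with an interval of -0.32 to 0.22. The second Gata4 probe set, 1370293_at, ran between 8.02 and 8.15 on all 6 arrays. Gata6, a partner of Gata4, read 10.59 and 10.35 in stretched cells, 10.69 and 10.55 in phenylephrine cells, and 11.01 and 10.62 in control cells. Both stretch arrays lay below the controls, and the control arrays differed by more than the treated pairs did. The difference of stretch minus control was -0.34 ± 0.16, with an interval of -0.71 to 0.03 and an adjusted p of 0.957, and the blocked fit gave 0.0507. The dimmer Gata6 probe set read 8.26 and 8.26 in stretched cells, 8.16 and 8.27 in phenylephrine cells, and 8.23 and 8.24 in control cells. Its stretch arrays lay above both controls, opposite to the brighter probe set.

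The MEF2 genes, whose proteins are activated by calcium and stress kinase signals, gave no call at the threshold. Mef2a read 12.68 and 12.50 in stretched cells, 12.87 and 12.60 in phenylephrine cells, and 12.78 and 12.57 in control cells with its brightest probe set, and all groups overlapped. For Mef2a, stretch minus control was -0.08 ± 0.14, with an interval of -0.40 to 0.24, and phenylephrine minus control was 0.06 ± 0.14, with an interval of -0.26 to 0.38. Of the other 3 Mef2a probe sets, 1392472_at read 11.07 and 11.73 in stretched cells, 11.13 and 11.12 in phenylephrine cells, and 11.17 and 11.83 in control cells. Its second stretch and second control arrays were high and the phenylephrine arrays alike, and the interval of phenylephrine minus control, -0.37 ± 0.26, included 0. The remaining 2 Mef2a probe sets, 1378360_at and 1393290_at, had stretch minus control of -0.19 and -0.07 and phenylephrine minus control of -0.10 and -0.19, and none was called.

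By brightest probe sets, Mef2c was the only 1 of 9 genes with both stretch arrays above both controls. Counted over probe sets this was 2 of 19, the other being the dimmer one of Gata6, against 19.4% of all. The brightest Mef2c probe set read 11.51 and 11.32 in stretched cells, 11.36 and 11.005 in phenylephrine cells, and 11.28 and 11.19 in control cells. Stretch minus control was 0.18 ± 0.15, with an interval of -0.16 to 0.53, and stretch minus phenylephrine was 0.23 ± 0.15 (adjusted p = 0.617). The second probe set, 1373410_at, read 10.27 and 10.53 in stretched cells, 10.16 and 9.90 in phenylephrine cells, and 10.15 and 10.28 in control cells. There the stretch and phenylephrine arrays did not overlap, and stretch minus phenylephrine was 0.37 ± 0.14, with an interval of 0.04 to 0.69 and an adjusted p of 0.332. The blocked fit gave an adjusted p of 0.0408.

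Srf, which directs immediate early, cytoskeletal and contractile genes, lay on opposite sides of the controls under the stimuli by its brightest probe set in the deposited values, but not under quantile normalization. Its brightest probe set read 11.65 and 11.71 in stretched cells, 11.99 and 11.92 in phenylephrine cells, and 11.89 and 11.84 in control cells. Both stretch arrays were below both controls and both phenylephrine arrays above them. By brightest probe sets, Srf was the only gene with phenylephrine arrays above the controls. Counted over probe sets this was 3 of 19, among them the dim one of Irx4, against 21.5% of all. Under quantile normalization the phenylephrine arrays of the brightest Srf probe set no longer lay above both controls (phenylephrine minus control 0.05), and centring arrays on their medians kept the deposited order. Stretch minus control was -0.18 ± 0.11, with an interval of -0.43 to 0.07, and phenylephrine minus control was 0.09 ± 0.11, with an interval of -0.16 to 0.34. Stretch minus phenylephrine was -0.27 ± 0.11, with an interval of -0.52 to -0.02 and an adjusted p of 0.356. The other Srf probe sets, 1374829_at and 1395378_at, had stretch minus control of -0.04 and 0.02 and phenylephrine minus control of 0.08 and 0.20, and none was called. Neither lay on opposite sides of the controls. The phenylephrine arrays of 1374829_at and the stretch arrays of 1395378_at overlapped them. The interval of 1395378_at for phenylephrine minus control, 0.006 to 0.40, did not include 0 (limma adjusted p = 0.287).

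**Figure D3:**
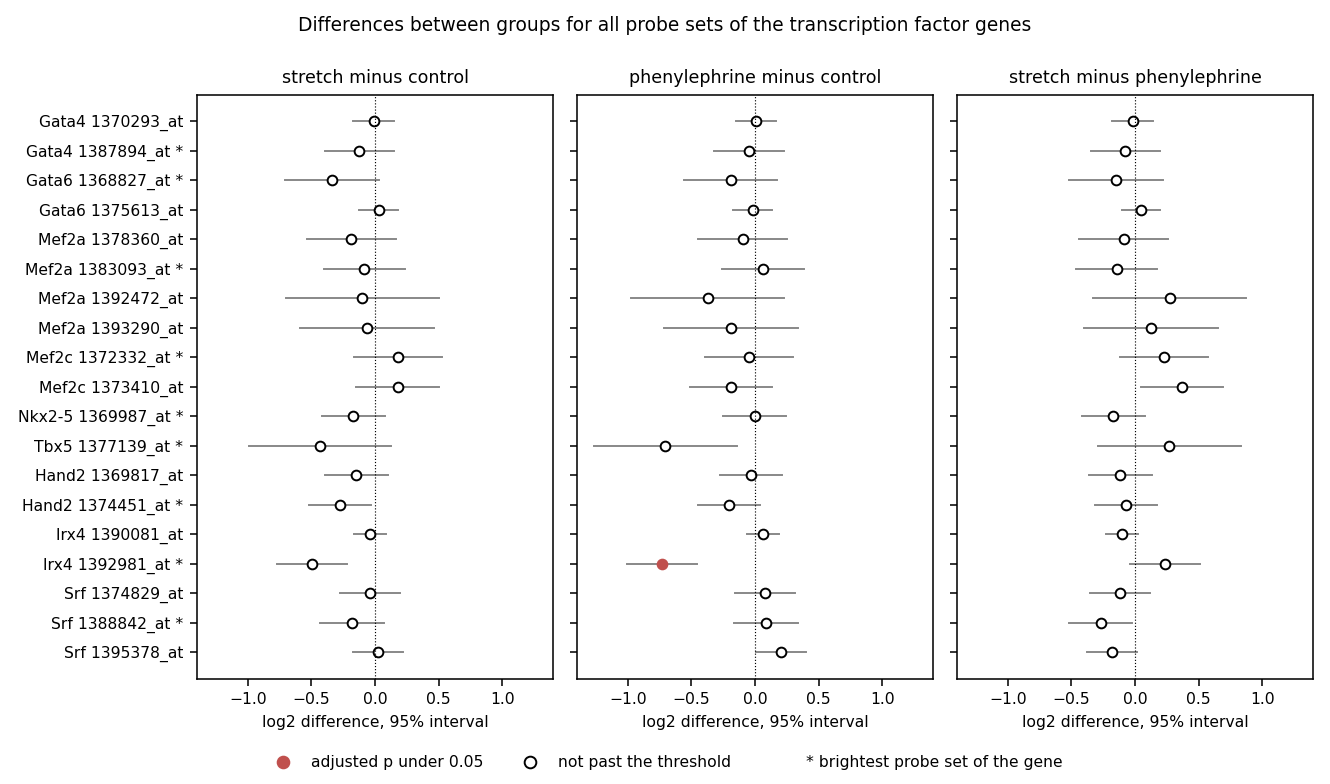
Log2 difference of group means (horizontal axes) with its 95% interval from limma for all 19 probe sets, with a filled point where the adjusted p was under 0.05 and a star at the brightest probe set of a gene. The single filled point is Irx4 1392981_at in phenylephrine minus control, at -0.73.

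Genes that work with the core factors or downstream of them were described from lists, each gene by its brightest probe set. Blocked counts in these lists stand beside the blocked shares of all probe sets. Those were 17.3% in phenylephrine against control, 3.31% in stretch against control and 12% in stretch against phenylephrine, in either direction. Of 28 other cardiac transcription factors listed, 24 were measured, and phenylephrine raised 0 and lowered 1. The fallen gene was Hopx, a small homeodomain protein that restrains SRF, at -0.66 ± 0.13 (adjusted p = 0.0338). Stretch called 0 of 24, and the largest difference was again Hopx, at -0.70 ± 0.13 (adjusted p = 0.109). Hopx read 9.34 and 9.09 in stretched cells, 9.37 and 9.14 in phenylephrine cells, and 9.99 and 9.84 in control cells, with both treatments below the controls. With the replicate block 1 rose and 6 fell under phenylephrine and 0 rose and 2 fell under stretch, Hopx among them (adjusted p = 6.9e-05 for stretch). Without the second phenylephrine array 0 of 24 were called. The list's median difference was -0.08 for stretch and -0.10 for phenylephrine. Between the stimuli 0 of 24 were called, and Nr2f2, an atrial nuclear receptor, had the largest difference, 0.30 ± 0.15 (adjusted p = 0.460). With the block 1 rose and 2 fell between the stimuli, and the gene that rose was Nr2f2 (adjusted p = 0.00822).

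Of 23 cofactors and regulators listed, 20 were measured, and phenylephrine raised 3 and lowered 0. They were Id1, an inhibitor of basic helix-loop-helix proteins (0.85 ± 0.12, adjusted p = 0.0104), Csrp3, a muscle LIM protein (0.78 ± 0.10, adjusted p = 0.00688), and Smarcd3, a heart subunit of the BAF chromatin remodelling complex (0.65 ± 0.13, adjusted p = 0.0341). Csrp3 read 13.76 and 13.87 in stretched cells, 14.09 and 14.11 in phenylephrine cells, and 13.39 and 13.24 in control cells, and the 3 groups did not overlap. Stretch called 0 of 20, and its largest difference was that of Csrp3, 0.50 ± 0.10 (adjusted p = 0.138). With the replicate block 4 rose and 3 fell under phenylephrine and 2 rose and 0 fell under stretch, which were Csrp3 (adjusted p = 0.0366) and Id1 (adjusted p = 0.00760). Between the stimuli 0 of 20 were called, and 2 fell with the block, Id1 (-0.42 ± 0.12) and Smarcd3 (-0.38 ± 0.13). Myocd, the coactivator that SRF uses in muscle, had phenylephrine minus control of 0.14 ± 0.10 (adjusted p = 0.597).

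Of 26 heart muscle target genes listed, 24 were measured. Phenylephrine raised 3, the natriuretic peptide genes Nppb (1.12 ± 0.12, adjusted p = 0.00418) and Nppa (1.05 ± 0.12, adjusted p = 0.00504) and Acta1, which encodes skeletal actin (1.09 ± 0.11, adjusted p = 0.00373). It lowered 1, Gja5, the connexin 40 gene, a known target of TBX5 and NKX2-5 (-1.15 ± 0.13, adjusted p = 0.00488). Gja5 read 10.68 and 10.61 in stretched cells, 10.63 and 10.34 in phenylephrine cells, and 11.67 and 11.59 in control cells. All 4 treated arrays lay below both controls, as for 2 of the 24 targets and 9.2% of all probe sets. A link between the levels of Gja5 and Tbx5 was not tested. Stretch raised 1 and lowered 1 of 24, Nppb and Gja5, and with the block 3 rose and 1 fell, adding Nppa (adjusted p = 0.00928) and Acta1 (adjusted p = 0.00569). The median difference of the list was 0.03 for stretch and 0.18 for phenylephrine. Under quantile normalization stretch raised 3 and lowered 3 with a median of -0.04, and phenylephrine raised 5 and lowered 4 with a median of 0.01. Between the stimuli 0 of 24 were called, and the largest difference was that of Acta1, -0.38 ± 0.11 (adjusted p = 0.190).

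SRF targets differed between the stimuli at 3 genes in the deposited values. Of 8 immediate early targets, phenylephrine raised 1, Fos (1.64 ± 0.22, adjusted p = 0.00861), and stretch called 0, the largest difference being that of Ier2 (0.51 ± 0.13, adjusted p = 0.339). Fos, a subunit of the AP-1 transcription factor, read 9.65 and 9.29 in stretched cells, 10.98 and 10.34 in phenylephrine cells, and 9.12 and 8.92 in control cells. It was lower in stretched than in phenylephrine cells (-1.19 ± 0.22, adjusted p = 0.0471), a call that held in 1 of 6 omissions of an array. Egr1, a zinc finger early response gene, read 11.19 and 11.35 in stretched cells, 10.60 and 10.45 in phenylephrine cells, and 11.01 and 11.04 in control cells. It was higher in stretched than in phenylephrine cells (0.75 ± 0.12, adjusted p = 0.0313), also in 1 of 6 omissions. With the block 1 rose and 1 fell under phenylephrine, the second being Egr1 (adjusted p = 0.00214), 2 rose under stretch, and 3 rose and 1 fell between the stimuli. Under quantile normalization 1 rose and 1 fell under phenylephrine and 1 rose under stretch.

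Of 15 cytoskeletal SRF targets listed, 14 were measured, and phenylephrine raised 4 and lowered 0, with a median difference of 0.30. The largest rises were those of Cnn1, which encodes the smooth muscle protein calponin (2.55 ± 0.13, adjusted p = 0.000968), Fhl1, a LIM protein of the sarcomere (1.53 ± 0.11), and Acta2, smooth muscle actin (0.96 ± 0.12). Ctgf, a secreted matrix regulator now named Ccn2, rose by 0.59 ± 0.11. Stretch raised 5 and lowered 0, with a median of 0.37, and the 4 largest were Cnn1 (1.45 ± 0.13), Cyr61 (1.32 ± 0.16), Fhl1 (1.19 ± 0.11) and Actn1 (0.97 ± 0.13). Cnn1 read 9.80 and 9.69 in stretched cells, 11.02 and 10.68 in phenylephrine cells, and 8.35 and 8.25 in control cells, 3 groups without overlap, and stretch minus phenylephrine was -1.10 ± 0.13 (adjusted p = 0.0109). That was the only one of the 14 called between the stimuli in the deposited values. With the block 7 rose under phenylephrine, 8 under stretch, and 3 rose and 2 fell between the stimuli. Under quantile normalization 6 rose and 1 fell under phenylephrine, and 4 rose and 4 fell between the stimuli. The intervals of the brightest Srf probe set included 0 under both stimuli, while that of 1395378_at under phenylephrine did not.

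Calls of the genes named from these lists were also repeated with each of the 6 arrays left out. Under phenylephrine Cnn1, Fhl1, Nppb, Acta1, Nppa, Gja5 and Csrp3 were called in 6 of 6 omissions. Fos was called in 5, Id1 and Acta2 in 4, and Hopx, Smarcd3 and Ctgf in 1. Under stretch Fhl1 was called in 5, Cnn1 in 4, Nppb, Gja5, Cyr61 and Actn1 in 2 and Ctgf in 0, with the direction kept in every omission for each.

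**Figure D4:**
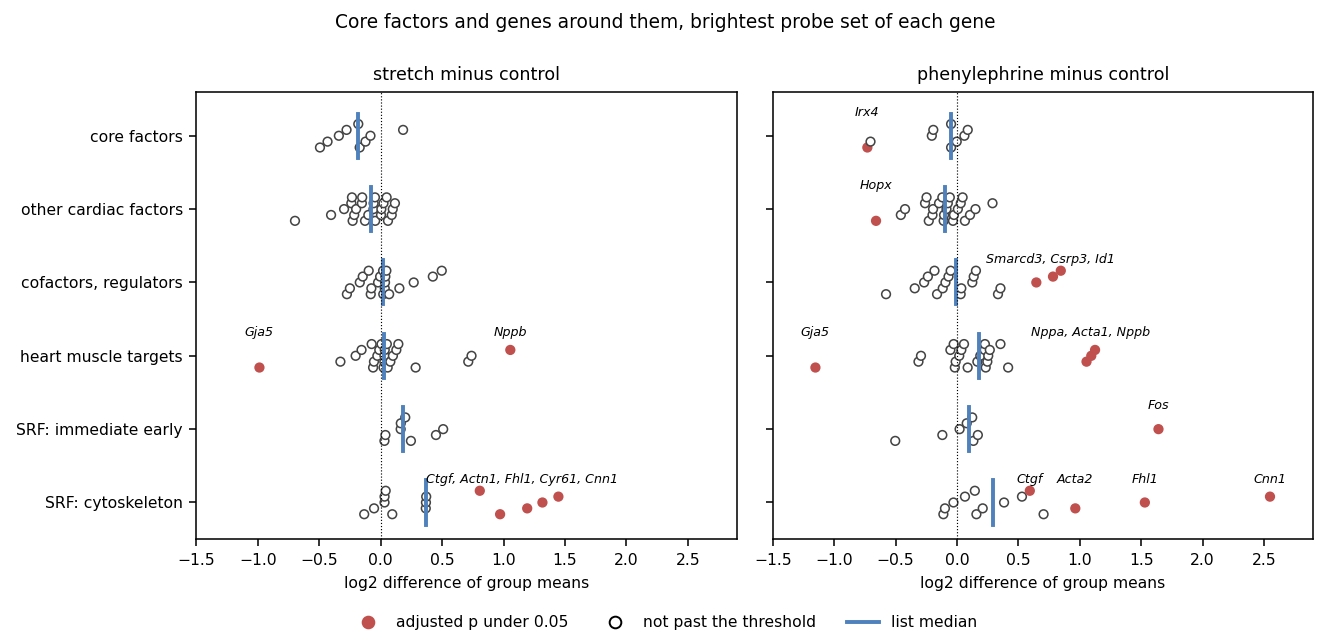
Log2 difference of group means for each gene of the core factors and the lists around them, by list (rows), for stretch minus control and phenylephrine minus control, with filled points where the adjusted p was under 0.05 and a bar at the median of a list. Cyr61 and Ctgf are older names of Ccn1 and Ccn2. Irx4 is the single filled point among the core factors, and the cytoskeletal targets of SRF hold 5 filled points for stretch and 4 for phenylephrine, where the heart muscle targets also hold 4.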

How the data were processed

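Single-colour Affymetrix arrays measured RNA in 3 groups of 2 arrays. The authors deposited 1 value per probe set and array, taken here as log2 expression because values ran between 5.80 and 15.2; how they summarised, background-corrected and normalized the arrays is not stated in the labels. Of 31099 rows, 57 array controls were left out. Symbols came from the platform annotation of 2016, in which 20826 tested probe sets had 1 symbol, 436 several and 9780 none.

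The deposited scale was kept, as array medians differed by 0.038. The number of arrays limits the precision, and array normalization would hide a change shared by most probe sets. One mean per group was fitted to 31042 probe sets with limma 3.58.1 in R 4.3.3 (lmFit, eBayes with a mean-variance trend; 3 residual and 4.8 prior degrees of freedom), with two-sided tests and Benjamini-Hochberg adjusted p under 0.05 as the threshold. The fit was tested on simulated data. Deviations of arrays with the same replicate number correlated at 0.487 between control and phenylephrine, 0.673 between control and stretch and 0.534 between phenylephrine and stretch. The labels do not say that numbers mark shared material, and on these correlations they were taken as pairs and a block was fitted as an alternative. The narrower interquartile range of every second array also went with the number, and the block cannot tell this from shared material.

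The members and gene lists were chosen with earlier results of these data known. All member probe sets are described. Up to 4 called genes per list and comparison are named, or else the gene with the largest difference, and the 3 profiles nearest to a called member; the cell markers named, Myocd, and repeats of a named gene in another comparison were chosen after their values were seen. Alternatives were quantile normalization, median centring, 2 other variance priors, the block, a filter on dim probe sets, fits on 4 arrays, leaving out each array, and the mean of a gene's probe sets.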

Additional observations from a re-analysis of the deposited data

Results flagged for a closer look

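Groups of 2 arrays are too small to test for a single array that stands apart. In the deposited values the brightest of the 3 Srf probe sets lay on opposite sides of the controls, below in both stretch arrays and above in both phenylephrine arrays. The other Srf probe sets did not show this. Under quantile normalization the phenylephrine arrays of the brightest probe set overlapped the controls. Its stretch minus phenylephrine was -0.27 on the log2 scale and did not pass the threshold (limma adjusted p = 0.356). Among SRF targets, 3 genes passed the test of the difference between stretch and phenylephrine. Fos had a stretch minus phenylephrine of -1.19, Cnn1 of -1.10, and Egr1 of 0.75. The Fos call was lost without the mean-variance trend (adjusted p = 0.0662), with a robust prior (0.0525) and on the 4 arrays compared (0.0732), and the Egr1 call on those 4 arrays (0.0861).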

How the results depend on the processing

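Over 57 comparisons of member probe sets and 13 other settings, 722 of 732 values stayed on the same side of the threshold, 5 lost a call, 5 gained one and 0 reversed a called direction; 33 uncalled values changed sign. Quantile normalization called 1 member probe set and 1 gene in stretch against control, Irx4 (-0.52, adjusted p = 0.0158), and 2790, 386 and 1527 of all probe sets in phenylephrine against control, stretch against control and stretch against phenylephrine. With the replicate block these counts were 5384, 1028 and 3734, against 1117, 107 and 413 without it, and the members called were 2, 1 and 1 probe sets (2, 1 and 0 genes). Fits on only the 4 arrays compared called 0 member probe sets and 0 genes for phenylephrine (Irx4 adjusted p = 0.0522), 661 of all probe sets there and 230 between the stimuli. The mean of a gene's probe sets gave 0 genes for phenylephrine. Leaving out 1 array gave 0 to 2 member probe sets and 0 to 2 genes for phenylephrine, and 189 to 1249, 26 to 112 and 51 to 473 of all probe sets in the 3 comparisons. The median of the member genes for phenylephrine ran between -0.19 without the first phenylephrine array and 0.03 without the second. The other settings kept the member counts, and the cause of these changes was not tested.

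Under quantile normalization 2 genes lay below and 0 above the controls without overlap for phenylephrine, where 3 (Hand2 being the one lost) and 1 (Srf) did as deposited. Counted over probe sets, 3 of 19 lay below under quantile normalization, against 23.9% of all probe sets. As deposited 4 of 19 did, against 22.1%, so both counts were near or under the share of all. Quantile normalization also called 2 of 20 cofactors under stretch and 3 of 20 between the stimuli, where 0 were called as deposited. Of 24 heart muscle targets it called 4 between the stimuli, where 0 were called as deposited. Of the other 24 cardiac factors it called 2 under phenylephrine, 1 under stretch and 1 between the stimuli. Dim probe sets such as 1390081_at limit what can be seen of a gene, and no detection calls were used.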
